A study of Mus musculus with 8 samples.

Results

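General splicing factor genes were followed in whole spinal cords of *Nfix*-/- mouse embryos and of their wild-type (*Nfix*+/+) littermates at E14.5. A gene was taken where a row of the deposited table carried a single gene symbol of 1 of 4 families: SR proteins (*Srsf*), heterogeneous nuclear ribonucleoproteins (*Hnrnp*), the SF3A and SF3B complexes (*Sf3a*, *Sf3b*) and small nuclear ribonucleoprotein polypeptides (*Snrp*, with *Snrpn* left out). This gave 43 genes of the 30176 symbols measured: 10 SR, 16 hnRNP, 9 SF3 and 8 Snrp genes. Rows are transcript clusters, each the probes laid out on the array for a stretch of transcribed genome, and a symbol with several rows is shown by the row with the highest mean. The 8 arrays, 4 of *Nfix*-/- and 4 of wild-type, are labelled as biological replicates 1 to 4, and all embryos were of the C57Bl/6J strain from matings of heterozygotes. RNA of the whole cord was measured, so that fewer cells of a type and less RNA per cell cannot be told apart.

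Splicing removes introns from pre-mRNA on the spliceosome, which is built from small nuclear RNAs and their proteins. Sm proteins form a ring on these RNAs, and further Snrp proteins mark the U1 particle, which reads the donor splice site, and the U2 particle, which pairs with the branch point. SF3A and SF3B are the large subcomplexes of U2 that hold the branch point. SR proteins bind exons and mostly promote the use of nearby splice sites, hnRNPs coat nascent RNA and often oppose them, and the balance between both sets much of alternative splicing in developing neurons and progenitors. NFIX, the transcription factor missing in the mutants, belongs to the Nuclear Factor One family and promotes differentiation of neural stem cells.

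*Nfix* itself was lower in every *Nfix*-/- array, at log2 values of 8.90, 8.88, 8.83 and 8.81, against 9.36, 9.18, 9.25 and 9.19 in wild-type (log2 difference -0.39, standard error 0.0544, limma adjusted p = 0.00240). Where its probes lie relative to the deletion was not analysed here. Over the arrays, wild-type replicate 2 stood apart on the first principal component (42.3% of the variance). Negative-control probe sets had a median of 4.60 in *Nfix*-/- replicate 4 and of 4.34 to 4.40 in replicates 1 to 3, and of 4.88 in wild-type replicate 2 and 4.33 to 4.49 in replicates 1, 3 and 4. A cluster is called brighter here where at least 4 arrays put it over the 95th percentile of their negative controls. The 11778 brighter clusters of 65956 had a median log2 difference of 0.09 between genotypes (*Nfix*-/- minus wild-type, as throughout), and all clusters one of 0.02. Of the splicing factor genes 39 were among them. All 8 listed genes of neurons, 7 of 8 of neural progenitors and 5 of 7 *Hox* genes of the cord were as bright, with *Nefl* called higher, *Hes5* called lower and no *Hox* gene called in *Nfix*-/-. The arrays differed widely in *Hox* genes of the caudal cord. *Hoxc10* had log2 values of 8.97, 8.37, 8.71 and 4.73 in *Nfix*-/- arrays and 6.64, 7.93, 8.53 and 7.98 in wild-type arrays, and *Hoxd10* had 8.33, 7.14, 7.99 and 4.38 in *Nfix*-/- arrays and 4.91, 6.83, 7.61 and 6.76 in wild-type arrays. *Nfix*-/- replicate 4 was the lowest for both genes, followed by wild-type replicate 1. Among cells outside the cord's own lineages, 3 of 7 skeletal muscle genes and 3 of 6 genes of meninges and fibroblasts were called higher in *Nfix*-/-, with mean log2 levels over the lists of 6.34 to 6.998 and 8.86 to 9.005 in *Nfix*-/- arrays, against 6.00 to 6.60 and 8.71 to 8.80 in wild-type arrays. On every array 5 of the 7 muscle genes, among them the 3 called, lay under the 95th percentile of the controls, and no meningeal gene did. None of 5 genes of sensory ganglia was called, but their median log2 difference was 0.22 (mean levels of 8.17 to 8.37 in *Nfix*-/-, 7.69 to 8.28 in wild-type). None of 5 red blood cell genes was called either, while 2 of 7 genes of endothelium and microglia, *Cdh5* and *C1qc*, were called higher. *C1qc* lay under that percentile of the controls on every array. The part of these markers and of the *Hox* levels in the values below was not tested, and the calls with each array left out stand beside the called genes. How many of all clusters were called in those fits was not counted.

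In the *Nfix*-/- cords 4 splicing factor genes were called higher and none lower by limma at an adjusted p under 0.05: *Hnrnpd*, *Hnrnpc*, *Sf3b6* and *Srsf12*. This is 9.30% of the 43 genes, against 11.5% of all 65956 clusters called higher and 14.1% of the brighter clusters, a share near the background. Lower calls made up 10.5% of all clusters and 0.416% of the brighter ones. By limma's unadjusted p 13 were higher (30.2%, against 20.2% of all clusters) and 0 lower. The share of the brighter clusters, which held most of the 43 genes, was not counted for the unadjusted p. By the methods' t-test 9 of the 43 genes were higher and 0 lower after adjustment, a larger share than the 11.2% of all clusters higher. By its unadjusted p 17 of the 43 were higher, also a larger share than the 20.5% of all clusters. For this test the brighter clusters were not counted separately either. With trend and robust settings limma called 7 higher (12.5% of all clusters), and with array weights 7 (15.2%). The log2 differences were small, from -0.11 for *Srsf5* to 0.24 for *Hnrnpd*, and none reached the 1.5-fold threshold of the study's methods. Of all clusters 2.27% passed this fold in either direction, and 2.05% did so with an adjusted p under 0.05. They were above 0 for 38 genes and below 0 for 5, with a median of 0.07, under the median of 0.09 of the brighter clusters. In 13 of the 43 genes (30.2%) every *Nfix*-/- array lay above every wild-type array, against 16.1% of all clusters and 28.1% of the brighter ones with this order. In none was every wild-type array above, an order that 12.0% of all clusters had. Its share of the brighter clusters, of which 0.416% were called lower, was not counted.

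**Figure D1:**
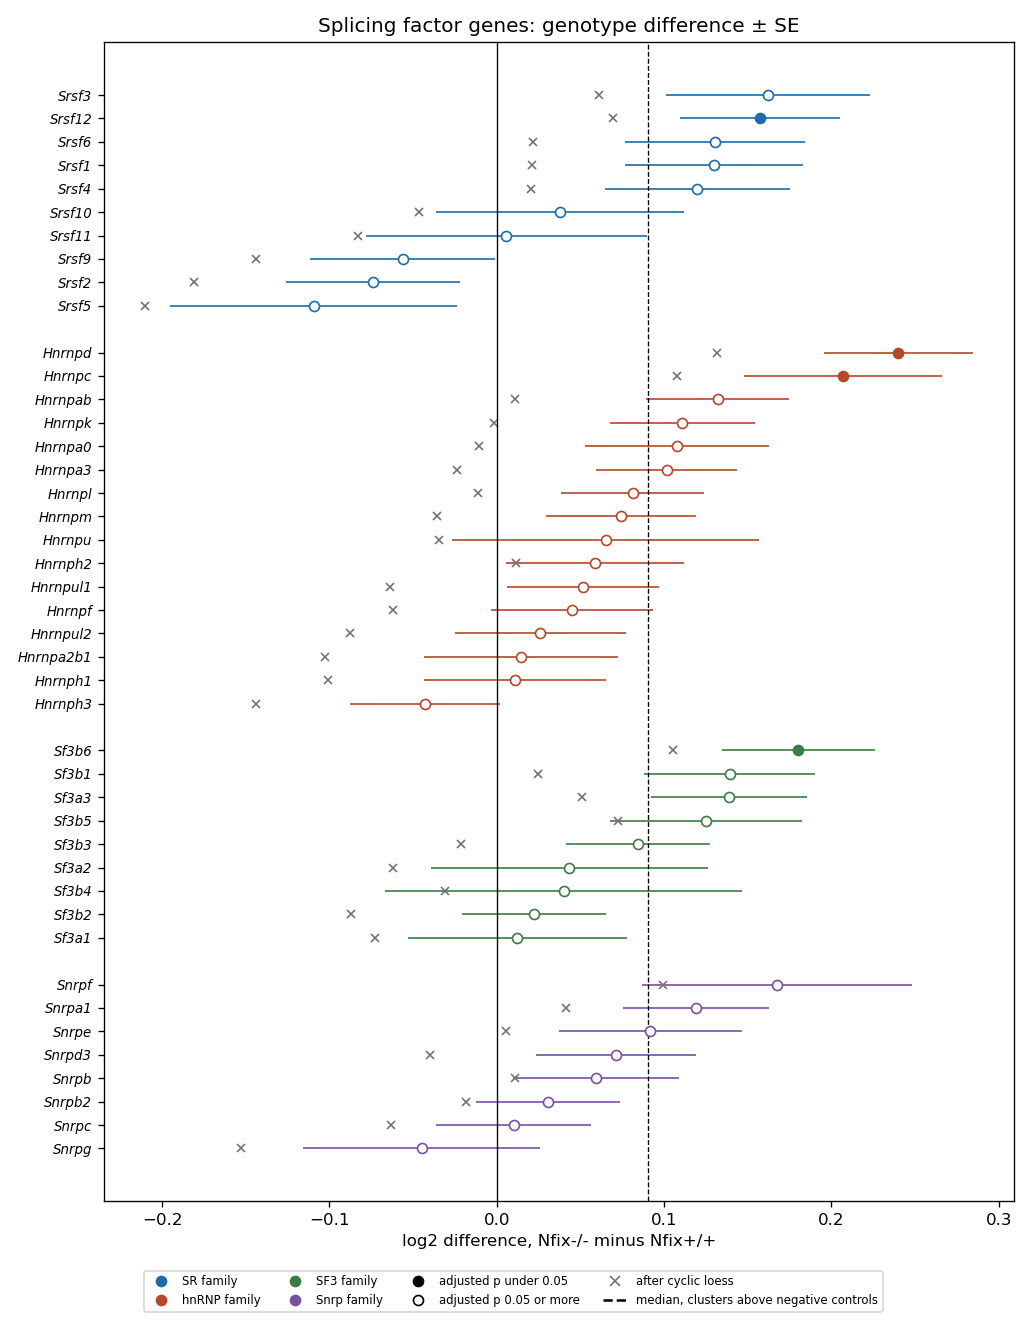
Log2 difference between *Nfix*-/- and wild-type spinal cords (x axis) of the 43 genes, ordered within each family, as points with the standard error from limma (4 arrays per genotype). Filled points have an adjusted p under 0.05, crosses give the value after cyclic loess normalization, and the dashed line is the median of the clusters above the negative controls, 0.09. The 4 filled points are *Srsf12*, *Hnrnpd*, *Hnrnpc* and *Sf3b6*, and each of the 43 crosses lies left of its point.

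By family, in *Nfix*-/- cords 2 of 16 hnRNP genes, 1 of 10 SR genes, 1 of 9 SF3 genes and none of 8 Snrp genes were called higher, and the median log2 differences were 0.07, 0.08, 0.08 and 0.07. For the Snrp genes the unadjusted limma p and the methods' t-test each gave 1 gene, *Snrpa1*. The differences ran from -0.04 to 0.24 in the hnRNP genes with 1 below 0, from -0.11 to 0.16 in the SR genes with 3 below 0, from 0.01 to 0.18 in the SF3 genes with 0 below 0, and from -0.04 to 0.17 in the Snrp genes with 1 below 0. After cyclic loess 4 of 16 hnRNP, 5 of 10 SR, 4 of 9 SF3 and 4 of 8 Snrp genes were above 0. No test over families was made.

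Of the hnRNP genes, *Hnrnpd* differed most. It encodes AUF1, which binds AU-rich elements and sets the stability of many mRNAs as well as binding nuclear RNA. Its log2 values were 9.44, 9.46, 9.40 and 9.52 in *Nfix*-/- arrays and 9.22, 9.25, 9.18 and 9.20 in wild-type arrays. The lowest *Nfix*-/- array was above the highest wild-type array by more than the range of the wild-type arrays, and the difference was 0.24 (standard error 0.0443, limma adjusted p = 0.00739), a fold of 1.18. *Hnrnpd* was called with each of the 8 arrays left out in turn, at adjusted p up to 0.0260. *Hnrnpc*, whose product binds uridine tracts and competes with splicing factors for them, had log2 values of 8.69, 8.71, 8.72 and 8.85 in *Nfix*-/- arrays, against 8.51, 8.65, 8.46 and 8.51 in wild-type arrays. Groups did not overlap, but *Nfix*-/- replicate 4 and wild-type replicate 2, the arrays with the highest negative controls, were the highest of their genotypes. The difference was 0.21 (standard error 0.0590, limma adjusted p = 0.0379), and with 1 array left out it was called only without wild-type replicate 2 (adjusted p up to 0.0956 without each of the others).

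**Figure D2:**
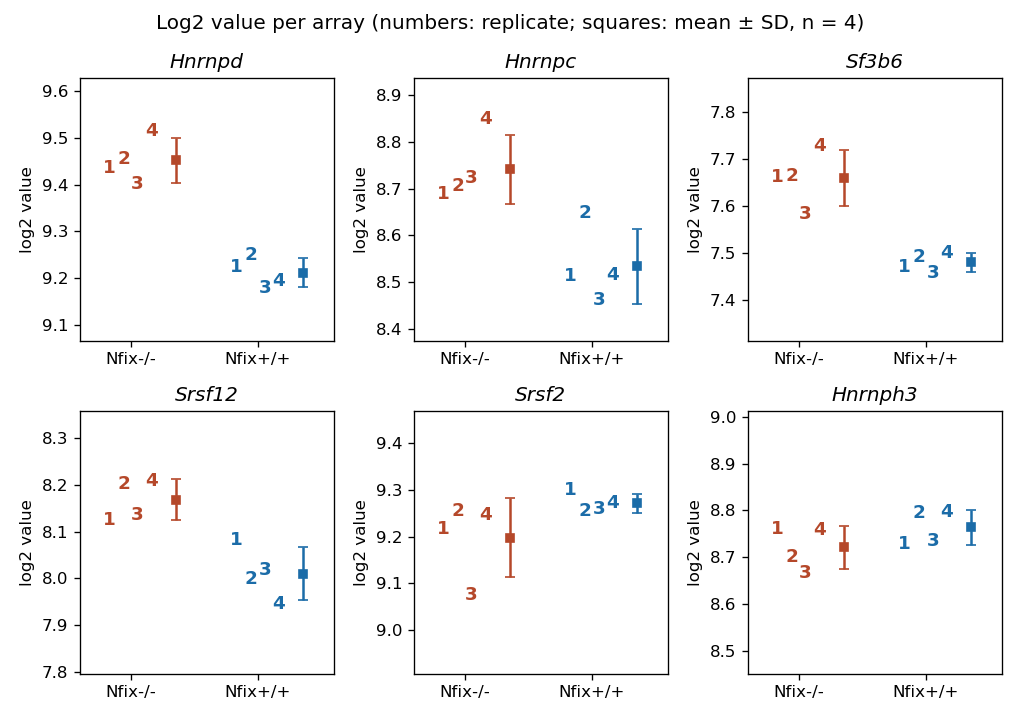
Log2 value of 6 splicing factor genes on each array (y axis, the same span of 0.56 in each panel), with *Nfix*-/- left and wild-type right in each panel. Numbers are the replicate labels, and squares with bars are the mean ± SD of 4 arrays. The genotypes do not overlap for *Hnrnpd*, *Hnrnpc*, *Sf3b6* and *Srsf12*, and overlap for *Srsf2* and *Hnrnph3*.

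Other hnRNP genes had lower values of the same sign without being called. *Hnrnpab* had log2 values of 10.59, 10.64, 10.61 and 10.58 in *Nfix*-/- arrays and 10.47, 10.42, 10.48 and 10.52 in wild-type arrays, with no overlap (difference 0.13, standard error 0.0426, limma adjusted p = 0.0578). It was chosen for its value, as were the further genes named here that were neither called nor at the end of their family. *Hnrnpk*, *Hnrnpa3* and *Hnrnpl* did not overlap between genotypes either. The values nearest 0 were those of *Hnrnph1* and *Hnrnpa2b1*. *Hnrnph1*, of the group that reads runs of guanine, had a difference of 0.01 (standard error 0.0544, limma adjusted p = 0.909), and *Hnrnpa2b1*, a relative of the A1 protein, one of 0.01 (standard error 0.0582, limma adjusted p = 0.887). *Hnrnph3* was the single hnRNP gene with a value below 0, at -0.04 (standard error 0.0448, limma adjusted p = 0.535). Its log2 values of 8.76, 8.70, 8.67 and 8.76 in *Nfix*-/- arrays overlapped those of 8.73, 8.80, 8.74 and 8.80 in wild-type arrays.

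Of the SR genes, *Srsf12* was called. Its protein is known for opposing other SR proteins in splice site choice. It had log2 values of 8.12, 8.20, 8.14 and 8.21 in *Nfix*-/- arrays and 8.08, 7.998, 8.02 and 7.94 in wild-type arrays, and the groups did not overlap, by a small margin. The difference was 0.16 (standard error 0.0478, limma adjusted p = 0.0474), just inside the threshold, and the call was lost with any 1 of the 8 arrays left out (adjusted p up to 0.122). *Srsf3*, the smallest SR protein, had a similar difference of 0.16 that was not called (standard error 0.0610, limma adjusted p = 0.0908). Its log2 values were 8.81, 8.85, 8.79 and 8.996 in *Nfix*-/- arrays and 8.64, 8.78, 8.65 and 8.73 in wild-type arrays, and the groups did not overlap. *Srsf1*, *Srsf4* and *Srsf6*, SR proteins of general splicing, had differences of 0.13, 0.12 and 0.13 (limma adjusted p = 0.115, 0.155 and 0.116).

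*Srsf2*, *Srsf5* and *Srsf9* lay on the other side of 0. *Srsf2*, a component of nuclear speckles that binds exonic enhancers, had log2 values of 9.22, 9.25, 9.08 and 9.25 in *Nfix*-/- arrays and 9.30, 9.25, 9.26 and 9.27 in wild-type arrays. The lowest value was that of *Nfix*-/- replicate 3, and the groups overlapped by *Nfix*-/- replicate 2 and wild-type replicate 2 (difference -0.07, standard error 0.0520, limma adjusted p = 0.345). *Srsf5* had log2 values of 8.70, 8.68, 8.68 and 8.63 in *Nfix*-/- arrays and 8.64, 8.9996, 8.62 and 8.86 in wild-type arrays (difference -0.11, standard error 0.0858, limma adjusted p = 0.397). Its spread came from the wild-type arrays, of which replicates 2 and 4 were high. The values nearest 0 in this family were those of *Srsf11*, 0.01 (standard error 0.0840, limma adjusted p = 0.970), and *Srsf10*, a splicing repressor when dephosphorylated, 0.04 (standard error 0.0741, limma adjusted p = 0.756).

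Of the SF3 genes, *Sf3b6* was called. Its product, also named p14, lies next to the branch point adenosine in the U2 particle. The log2 values were 7.66, 7.66, 7.58 and 7.73 in *Nfix*-/- arrays and 7.47, 7.49, 7.46 and 7.50 in wild-type arrays, without overlap. The wild-type arrays were close together, and the difference was 0.18 (standard error 0.0456, limma adjusted p = 0.0247). On 7 of 8 arrays the gene exceeded that percentile of the controls. With 1 array left out it was called in 3 of 8 fits, those without *Nfix*-/- replicate 3 or 4 or wild-type replicate 2, and not in the other 5 (adjusted p up to 0.0651). *Sf3a3*, a subunit of SF3A, had a difference of 0.14 without overlap (standard error 0.0465, limma adjusted p = 0.0648), and *Sf3b1*, the scaffold subunit that clamps the branch point helix, one of 0.14 with overlap (standard error 0.0511, limma adjusted p = 0.0848). *Sf3a1* and *Sf3b4* had 0.01 (standard error 0.0653, limma adjusted p = 0.916) and 0.04 (standard error 0.107, limma adjusted p = 0.824). For *Sf3b4* the error was the largest of the 43 genes, since *Nfix*-/- replicate 4 at 7.24 and wild-type replicate 2 at 7.15 lay below the other arrays, at 7.41 to 7.58.

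No Snrp gene was called. *Snrpa1*, a protein of the U2 particle, had log2 values of 7.74, 7.75, 7.69 and 7.70 in *Nfix*-/- arrays and 7.56, 7.66, 7.57 and 7.62 in wild-type arrays. It was the only gene of this family whose groups did not overlap (difference 0.12, standard error 0.0437, limma adjusted p = 0.0853). The Sm ring genes gave 0.17 for *Snrpf* (standard error 0.0805, limma adjusted p = 0.170), with wild-type replicate 2 low at 7.02 and replicates 1, 3 and 4 at 7.26 to 7.37, and 0.07 for *Snrpd3* (standard error 0.0480, limma adjusted p = 0.321). *Snrpc*, a U1 protein at the donor splice site, had 0.01 (standard error 0.0463, limma adjusted p = 0.901). *Snrpb* and *Snrpb2* stayed under that percentile of the negative controls on every array, as did *Sf3b5* and *Hnrnph2* in their families.

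The 250 bases before the annotated starts were read for the letters that NFI proteins bind, a palindrome of TTGGC and GCCAA, since NFIX is the factor removed. Of the 43 genes 39 matched a RefSeq promoter window by gene identifier. For 3 of the called genes the stretch of GRCm38.p6 outside the annotated span of the gene is shown 5′ to 3′ on the gene's strand, with TTGGC or its complement GCCAA in capitals: all 250 bases for *Sf3b6* (chr12:4817358-4817607, plus strand), 232 for *Hnrnpc* (chr14:52104040-52104271, minus strand) and 58 for *Hnrnpd* (chr5:99979131-99979188, minus strand).
Sf3b6: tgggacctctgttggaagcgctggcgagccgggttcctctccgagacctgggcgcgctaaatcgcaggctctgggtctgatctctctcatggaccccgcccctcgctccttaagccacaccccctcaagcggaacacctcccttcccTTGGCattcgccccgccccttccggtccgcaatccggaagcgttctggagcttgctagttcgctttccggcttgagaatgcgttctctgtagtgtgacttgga
Hnrnpc: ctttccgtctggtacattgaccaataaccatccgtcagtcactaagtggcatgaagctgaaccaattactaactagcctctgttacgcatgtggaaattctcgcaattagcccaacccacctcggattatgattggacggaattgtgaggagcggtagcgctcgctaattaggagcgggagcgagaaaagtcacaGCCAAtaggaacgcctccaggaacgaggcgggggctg
Hnrnpd: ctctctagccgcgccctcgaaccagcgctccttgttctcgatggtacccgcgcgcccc

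The full palindrome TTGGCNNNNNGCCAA, with N for any base, was in the 250 bases before the start of 0 of 39 genes and of 0.0444% of 27025 annotated genes. The single arm TTGGC, on either strand, was there in 25 of 39 (64.1%), against 45.3% of all genes. By family this was 12 of 15 hnRNP, 5 of 7 SF3, 5 of 10 SR and 3 of 7 Snrp genes. CCAAT, which overlaps the arm in GCCAAT as in *Hnrnpc*, was in 19 of 39 (48.7%), against 37.5% of all genes. Of the called genes *Hnrnpc* and *Sf3b6* held the arm, and *Hnrnpd* and *Srsf12* did not. A match of these letters is a description of the window and no site of binding.

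Which genes were called changed with the scaling of the arrays, and lower calls appeared. The genes called higher under the deposited scaling stayed above 0 in each scaling. After cyclic loess, which removes differences between arrays that depend on brightness, *Hnrnpd* was the only gene of the 43 still called higher, at 0.13 (limma adjusted p = 0.0396), and *Srsf2* at -0.18 (adjusted p = 0.0240) and *Hnrnph3* at -0.14 (adjusted p = 0.0442) were called lower. The shares of all clusters called after cyclic loess were 10.0% higher and 10.3% lower, and of the brighter clusters 3.24% higher and 2.32% lower. After quantile normalization 0 were higher, with *Hnrnpd* at 0.12, and *Srsf2* was lower at -0.18 (adjusted p = 0.0427), against 8.91% and 8.22% of all clusters. After cyclic loess 17 of the 43 genes had values above 0, and the family medians were -0.013 for SR, -0.029 for hnRNP, -0.022 for SF3 and -0.0064 for Snrp genes, beside -0.0060 over the brighter clusters. *Hnrnpd* had the highest value of the 43 genes under both scalings, and *Srsf5* the lowest, at -0.21 each, without a call. Median scaling over all clusters gave 3 genes higher (10.8% of all clusters) and the scaling on brighter clusters 1 higher and 1 lower (4.62% and 17.2%). For quantile normalization and both median scalings the share of the brighter clusters called was not counted. With the adjustment over the brighter clusters alone 8 genes were called higher (20.6%), and over the clusters with 1 symbol alone 6 (17.6%).

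Within a genotype, most hnRNP genes deviated in the same direction on wild-type replicate 2, and the other families were more mixed. Wild-type replicate 2 was above the mean of the other wild-type arrays in 13 of 16 hnRNP genes and 7 of 10 SR genes, and below it in 6 of 9 SF3 and 5 of 8 Snrp genes. Of the brighter clusters 48.3% were above it. *Nfix*-/- replicate 4 deviated from the other *Nfix*-/- arrays in the same direction as wild-type replicate 2 from its own in 34 of the 43 genes (79.1%), against 74.4% of the brighter clusters. This held for 16 of 16 hnRNP and 9 of 9 SF3 genes, but for 6 of 10 SR and 3 of 8 Snrp genes. *Hnrnpu*, which binds nuclear RNA and chromatin, was 0.23 above the others in *Nfix*-/- replicate 4 and 0.31 above in wild-type replicate 2, and *Sf3b4* was 0.28 and 0.35 below. Of these 4 deviations, 3 were wider than the genotype difference of *Hnrnpd*, 0.24, and that of *Hnrnpu* in *Nfix*-/- replicate 4 was not. The measures are unlike, since a deviation rests on a single array and varies more than a difference between means of 4 arrays. *Hnrnpu* and *Sf3b4* were also named for their wide deviations. The part of the negative-control and *Hox* levels in the deviations was not tested. Without both arrays, 2 of the 43 genes were called higher (11.4% of all clusters), *Hnrnpd* at 0.23 (limma adjusted p = 0.0169) and *Hnrnpc* at 0.21 (adjusted p = 0.0229).

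**Figure D3:**
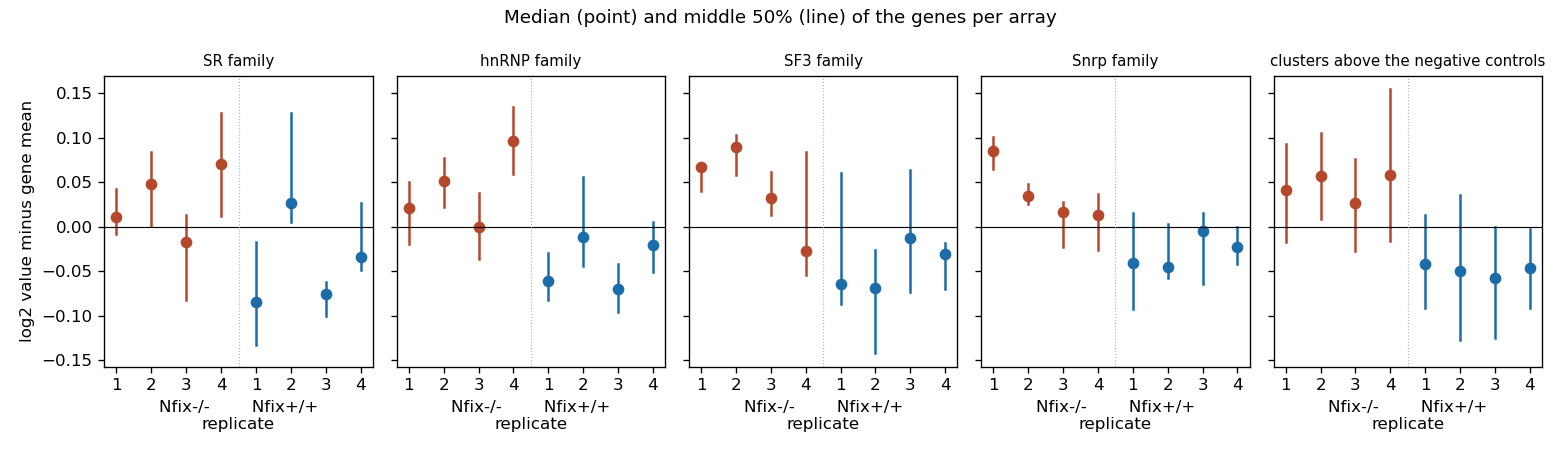
Log2 value minus each gene's mean over the 8 arrays (y axis), as the median (point) and middle 50% (line) over the genes of each family on each array, *Nfix*-/- arrays left. In the SR family wild-type replicate 2 has a median above 0 (0.03) and *Nfix*-/- replicate 3 one below 0 (-0.02). In the SF3 family *Nfix*-/- replicate 4 has a median below 0 (-0.03). Over the 11778 clusters above the negative controls all *Nfix*-/- medians are above 0 and all wild-type medians below it.

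**Figure D4:**
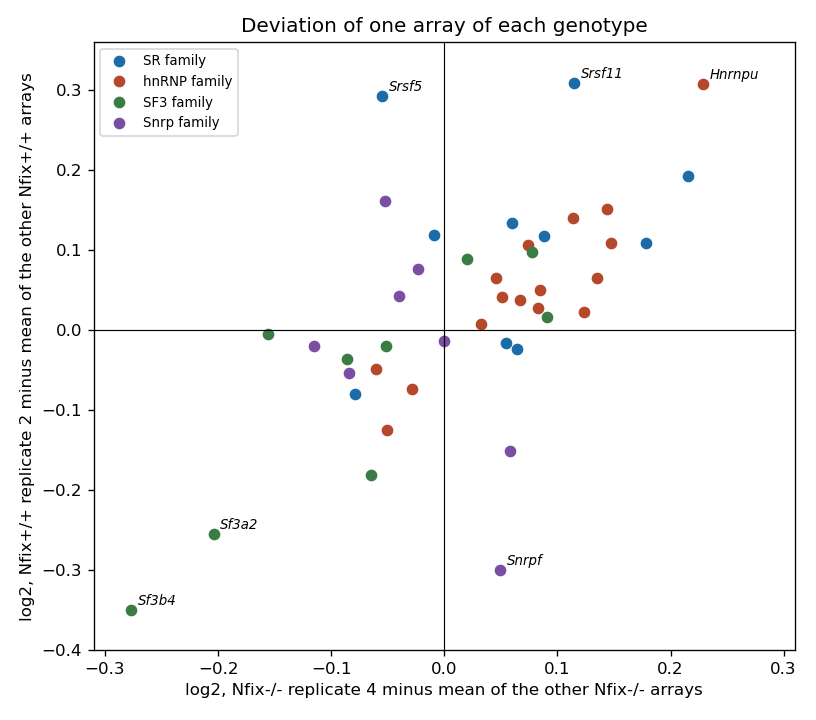
Deviation of *Nfix*-/- replicate 4 (x axis) and of wild-type replicate 2 (y axis) from the mean of the other 3 arrays of the same genotype, in log2 units, 1 point per gene. The hnRNP and SF3 genes all lie in the quadrants of equal sign, with *Hnrnpu* at the upper and *Sf3b4* at the lower end.

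For 2 genes the row does not lie where the gene does. The clusters named *Hnrnpa3* and *Snrpg* carry identifiers of chromosomes 3 and 17, while RefSeq places the genes on chromosomes 2 and 6, and identifier and gene shared the chromosome for 99.5% of 22431 named clusters. These values are uncertain as values of the named gene. *Hnrnpa3* had a difference of 0.10 (standard error 0.0421, limma adjusted p = 0.118), and a second cluster, shared with *Gm6793*, one of 0.14 (standard error 0.0515, adjusted p = 0.0928). *Snrpg* had -0.04 (standard error 0.0706, limma adjusted p = 0.693), and its dimmer row on chromosome 6 had 0.05 (standard error 0.0790, adjusted p = 0.679). The symbols *Hnrnpa1*, *Hnrnpdl*, *Hnrnpll*, *Hnrnpr*, *Snrpa*, *Snrpd1* and *Snrpd2* stood only on clusters with several symbols and are not among the 43, and *Srsf7* was not analysed here. None of these 7 clusters was called, with differences from 0.03 for *Hnrnpll* to 0.14 for *Snrpd1* (limma adjusted p = 0.627 and 0.175).

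Other genes of splicing and of related RNA processing were counted in the same way. Of 115 measured genes in 10 lists, 96 were among the brighter clusters. Of the 115, 11 were called higher (9.57%), against 11.5% of all clusters and 14.1% of the brighter ones, a share near the background. Lower calls were 0, against 10.5% of all clusters and 0.416% of the brighter ones, and the median difference was 0.07. By the unadjusted limma p 31 of the 115 were higher, against 20.2% of all clusters, and 1, *Clk2*, lower. The share of the brighter clusters was not counted for this p. In the lists of the Prp19 complex and step factors 3 of 17 rose, among them *Snw1* at 0.22 (adjusted p = 0.00839) and *Cwc22* at 0.18 (adjusted p = 0.0198, under the control percentile on every array), beside *Prpf19* at 0.17. Of 9 LSm genes, whose products form rings like those of the Sm proteins, 2 rose: *Lsm6* at 0.27 (standard error 0.0399, limma adjusted p = 0.00297) and *Lsm3* at 0.29 (standard error 0.0556, limma adjusted p = 0.00847). *Lsm6* had log2 values of 7.48, 7.44, 7.45 and 7.45 in *Nfix*-/- arrays and 7.19, 7.16, 7.22 and 7.16 in wild-type arrays. These were the only list genes still called higher after both quantile normalization and cyclic loess, but *Lsm3* was above the negative controls on 0 arrays and *Lsm6* on 3.

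Of 12 genes of snRNP assembly 2 rose, *Gemin7* of the SMN complex at 0.23 and *Snupn*, the import adaptor of the trimethylated cap, at 0.25, both above the negative controls on 0 arrays. Single genes rose in the lists of branch point recognition (*Rbm17* at 0.22, 1 of 7), of U1, U5 and tri-snRNP proteins (*Eftud2*, the U5 GTPase, at 0.16, 1 of 16), of spliceosomal helicases (*Ddx23* at 0.21, 1 of 10) and of the exon junction complex (*Rbm8a* at 0.22, 1 of 3). None was called of 16 SR-related proteins and SR protein kinases, at a median of 0.02 and with *Tra2b* at 0.18 (adjusted p = 0.0822) and *Tnpo3* at 0.12 (adjusted p = 0.0818). Nor was any of 8 minor spliceosome genes, with *Snrnp48* at 0.24 (adjusted p = 0.0644, under the control percentile on every array). None was called of 17 other RNA-binding proteins listed beside the hnRNPs, with *Rbmx* at 0.16 (adjusted p = 0.0552) and *Pcbp3* at 0.21 (adjusted p = 0.0748). After cyclic loess the kinase gene *Clk2*, whose product phosphorylates SR proteins, was lower at -0.20 (adjusted p = 0.0134) and *Khdrbs1*, encoding the splicing regulator SAM68, at -0.21 (adjusted p = 0.0195).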

How the data were processed

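RNA of 8 whole spinal cords was measured on Affymetrix Mouse Transcriptome Arrays, and per the paper's methods the authors ran a gene-level SST-RMA on all arrays with Affymetrix software (mm10). Deposited were log2 values for each transcript cluster and array, used as they are. The number of arrays limits the precision. Of 72688 rows, 6732 control probe sets were left out, and 65956 clusters were tested. Symbols came from the platform annotation and positions from RefSeq on GRCm38.p6 by Entrez identifier. Genotypes were compared unpaired with limma 3.58.1 in R 4.3.3, with Benjamini-Hochberg adjustment over all clusters and calls at 0.05. Same-numbered arrays were not treated as pairs: their deviations correlated at 0.470, -0.151, 0.0401 and -0.0755. Genes named are, per family, up to 6 called, the 2 with the highest p, the brightest and those called after cyclic loess, and up to 2 per list. Others named were chosen after their values were seen. Members, lists and tests were chosen with earlier results of these data known. The paper states fewer mice per genotype than the 4 arrays that the labels give, and the labels were followed. The labels do not say how embryos were spread over litters, so p-values measure the spread between these arrays.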

Additional observations from a re-analysis of the deposited data

Results flagged for a closer look

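In 2 of 86 groups of 4 arrays, made by 43 genes in 2 genotypes, 1 array lay far from the rest. Chance gives about 1 such group in 20. *Hnrnpa0* was high in *Nfix*-/- replicate 4 (10.4122 on the log2 scale), where replicates 1 to 3 had 10.28 to 10.29. *Hnrnph1* was high in wild-type replicate 2 (9.704 on the log2 scale), where replicates 1, 3 and 4 had 9.59 to 9.60. Neither gene was called.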

How the results depend on the processing

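Against 4 genes called higher (1 SR, 2 hnRNP, 1 SF3, 0 Snrp), limma with trend and robust settings and limma with array weights each gave 7 (SF3 2, Snrp 1), the methods' t-test 9 (hnRNP 5, SF3 2, Snrp 1) and 17 unadjusted (SR 5, hnRNP 7, SF3 4, Snrp 1). The filter on dim clusters gave 8 (hnRNP 4, SF3 2, Snrp 1) and the clusters with 1 symbol 2 SF3 genes. A fold over 1.5 and quantile normalization left 0 in every family, cyclic loess and the median scaling on brighter clusters (added after seeing the data) 1, an hnRNP gene, with 0 SR and 0 SF3. Median scaling gave 0 SR genes. With *Nfix*-/- replicate 4 and wild-type replicate 2 left out, also added, 2 were called (0 SR, 0 SF3). Counts of genes called lower were 1 after quantile normalization, 2 after cyclic loess and 1 after the scaling on brighter clusters. With 1 array left out, 1 to 4 genes were called higher: 0 SR, 1 to 2 hnRNP and 0 to 2 SF3 genes. The share of all clusters called in these fits was not counted, so a lost call is no result about that gene alone. The replicate block gave 1, *Hnrnpd* (0 SR, 1 hnRNP, 0 SF3), and 5439 of all clusters higher, but the arrays share only a number. Leaving out *Hnrnpa3* and *Snrpg*, or adding the 7 symbols of shared clusters, also chosen after seeing the data, gave 4.

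Differences turned below 0 in 20 genes after quantile normalization, 21 after cyclic loess and 21 after the scaling on brighter clusters, none of them called under the deposited scaling. Values are given for those named by rule. After quantile normalization, cyclic loess and the scaling on brighter clusters, in this order, the differences were -0.066, -0.073 and -0.081 for *Sf3a1*, -0.016, -0.031 and -0.053 for *Sf3b4*, -0.037, -0.047 and -0.055 for *Srsf10*, -0.081, -0.083 and -0.087 for *Srsf11*, -0.054, -0.063 and -0.083 for *Snrpc*, -0.11, -0.101 and -0.082 for *Hnrnph1*, -0.063, -0.102 and -0.079 for *Hnrnpa2b1*, and -0.047, -0.040 and -0.022 for *Snrpd3*. *Hnrnpa3* had -0.028 and -0.024 under the first 2. *Sf3a1* also had -0.017 with array weights and -0.017 without both arrays that stood apart, and *Snrpg* had 0.0037 as the mean of its rows and 0.052 by its dimmer row. With 1 array left out the differences ran from -0.033 to 0.043 for *Sf3a1*, -0.047 to 0.11 for *Sf3b4*, -0.016 to 0.086 for *Srsf10*, -0.040 to 0.083 for *Srsf11*, -0.0078 to 0.031 for *Snrpc*, -0.026 to 0.038 for *Hnrnph1*, -0.014 to 0.050 for *Hnrnpa2b1* and -0.083 to 0.0084 for *Snrpg*. The cause was not tested.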
